A study of Mus musculus with 12 samples.

Results

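The 9 genes described here, Hif1a, Vhl, Egln1, Egln3, Higd1a, Bnip3, Bnip3l, Pdk1 and Ankrd37, belong to the cell's response to low oxygen and to the removal of mitochondria by autophagy. They were taken by gene symbol from the 25700 rows of the RNA table, where all 9 were found, together with the 24 open chromatin regions over them or within 1 kb of them, of 114463 regions in all. The samples were Th2 cells, the helper T cells of allergic inflammation, in a study of mouse models of allergic asthma whose title names NRF2, the antioxidant transcription factor encoded by Nfe2l2. RNA-seq and ATAC-seq (sequencing of the DNA that a transposase can reach in chromatin) were each run on 3 libraries labelled cKO (conditional knockout) and 3 labelled WT, 12 libraries in all. The labels give no deleted gene, Cre driver, strain, age or sex, and no agent or time for either group, nor do they say whether the libraries of a group came from separate animals, so p-values measure only the spread between these libraries.

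RNA libraries totalled 6431081 to 7372007 normalized counts, and ATAC libraries held 13149952 to 18327127 tags. WT ATAC replicate 2 stood apart, with 25.22% of its tags in peaks against 34.87% to 38.28% in the other libraries. Nfe2l2 was at 452.8, 326.4 and 391.5 normalized counts in the cKO-labelled libraries and at 169.9, 155.3 and 147.4 in WT libraries, higher and not lower, so the knockout libraries are called cKO-labelled throughout. The Y-linked gene Ddx3y was listed at 0 in all 3 cKO-labelled RNA libraries and at 140.5, 123.4 and 131.7 in WT libraries, so the sex of the cells and the genotype cannot be told apart. All 7 T cell markers were present, and Gata3, the factor that sets Th2 fate, averaged 719.7 normalized counts in cKO-labelled and 711.7 in WT libraries. Of the Th2 cytokine genes, Il13 averaged 384.7 in cKO-labelled and 810.1 in WT libraries, and Il4 and Il5 were both under a mean of 10. Of the Th2 receptor genes, Ccr4 averaged 626.0 and Ccr8 293.8 in cKO-labelled libraries, above 470.7 and 185.2 in WT libraries. Il1rl1 was lower, at 18.06 in cKO-labelled and 26.37 in WT libraries. Summed Th2 markers overlapped, at 0.0267% to 0.0316% of the total in cKO-labelled and 0.0287% to 0.0338% in WT libraries. Summed markers of B and plasma cells took 0.0043% to 0.00556% of the total in cKO-labelled and 0.00399% to 0.00731% in WT libraries, and those of myeloid and dendritic cells 0.00242% to 0.00392% in cKO-labelled and 0.0028% to 0.00416% in WT libraries, against 0.17% to 0.197% and 0.164% to 0.178% in the same groups for the T cell markers.

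Hypoxia-inducible factor, HIF, is a transcription factor whose alpha subunit is made all the time and destroyed while oxygen is present. Prolyl hydroxylases of the Egln family mark the alpha subunit using oxygen, and the Vhl protein then brings it to a ubiquitin ligase. When oxygen is low the alpha subunit escapes, binds DNA at hypoxia response elements and switches on genes that lower the use of oxygen by mitochondria, among them kinases that close the entry of pyruvate and receptors that hand mitochondria to the autophagy machinery. In T cells Hif1a is also raised by antigen receptor signalling and favours glycolysis. The oxygen-dependent step acts on the Hif1a protein, which was not measured here.

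Printed here are the promoters of Bnip3, Higd1a, Pdk1, Ankrd37 and Egln3, which are among the genes that HIF is known to switch on. They are given because the RNA of some of them separated between the genotypes while that of others with the same cores did not. Each line holds the 250 bases before a RefSeq transcript start, 5′ to 3′ on the strand of the gene, from RefSeq's GRCm38.p6, the build mm10. Capitals mark the hypoxia response element cores ACGTG and GCGTG on either strand; the E-box CACGTG holds ACGTG on both strands. The windows are chr7:138909507-138909756 for Bnip3, chr9:121857797-121858046 for Higd1a, chr2:71872974-71873223 for Pdk1, chr8:45999851-46000100 for Ankrd37 and chr12:54203875-54204124 for Egln3. Of these Pdk1 lies on the plus strand and the others on the minus strand.
Bnip3: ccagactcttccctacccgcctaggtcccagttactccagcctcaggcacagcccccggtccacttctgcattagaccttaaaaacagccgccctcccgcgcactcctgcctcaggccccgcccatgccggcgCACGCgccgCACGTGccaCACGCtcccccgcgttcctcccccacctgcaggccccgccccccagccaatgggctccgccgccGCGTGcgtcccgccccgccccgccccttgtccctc
Higd1a: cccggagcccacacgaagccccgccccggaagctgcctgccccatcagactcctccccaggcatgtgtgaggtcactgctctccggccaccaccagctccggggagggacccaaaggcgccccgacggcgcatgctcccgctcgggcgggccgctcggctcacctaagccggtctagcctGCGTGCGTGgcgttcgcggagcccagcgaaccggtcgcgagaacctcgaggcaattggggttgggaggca
Pdk1: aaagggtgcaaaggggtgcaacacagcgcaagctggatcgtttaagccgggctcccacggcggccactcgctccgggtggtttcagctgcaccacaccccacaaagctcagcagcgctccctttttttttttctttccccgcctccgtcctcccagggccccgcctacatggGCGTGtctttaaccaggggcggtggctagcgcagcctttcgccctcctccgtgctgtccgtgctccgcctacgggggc
Ankrd37: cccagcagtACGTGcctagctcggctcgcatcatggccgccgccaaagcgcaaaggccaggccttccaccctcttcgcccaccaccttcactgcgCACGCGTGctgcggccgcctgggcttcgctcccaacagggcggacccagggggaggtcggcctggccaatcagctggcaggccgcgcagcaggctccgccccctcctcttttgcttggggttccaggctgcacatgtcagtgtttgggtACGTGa
Egln3: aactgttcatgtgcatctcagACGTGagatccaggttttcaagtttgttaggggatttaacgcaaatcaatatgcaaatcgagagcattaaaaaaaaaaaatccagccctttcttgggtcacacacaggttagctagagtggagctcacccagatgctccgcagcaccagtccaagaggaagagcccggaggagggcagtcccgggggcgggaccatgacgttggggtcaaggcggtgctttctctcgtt

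Of the 8 genes with an entry in the promoter table, 7 held at least 1 such core and 1, Vhl, held none. These counts take 1 window per gene. Pdk1 has a further window, with 38.4% G and C and no core, that is not counted. Bnip3 had the most, with 5 matches: a CACGTG 108 bases before its start, which counts as 2 matches of ACGTG, and 3 of GCGTG. Ankrd37 had 4, Hif1a 3, Egln1 and Higd1a 2 each, and Pdk1 and Egln3 1 each. The Higd1a matches overlap each other, 70 and 66 bases before the start. A core of either kind was in 38.6% of all 32851 promoter windows of this length, and in 63.8% of the 9178 windows with at least 60% G and C, a content that 7 of the 8 member windows reach. The antioxidant response element core TGACNNNGC, part of the sequence that NRF2 binds, was found on neither strand of these 8 windows and in 10.2% of all windows. A match is a description of letters and not a bound site.

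The RNA of 3 members was lower in every cKO-labelled library than in any WT library: Higd1a, Bnip3 and Pdk1. Complete separation in this direction held for 9.76% of the 18074 genes tested, and no member separated in the other direction, which 7.4% of genes did. Limma on log2 of the normalized count plus 1, with Benjamini-Hochberg adjustment over all genes tested, put 0 of the 9 members past an adjusted p of 0.05, a threshold that 0.205% of all genes passed. At an unadjusted p under 0.05 the count was 3 of 9, all lower, against 12.1% of genes in either direction and 6.05% lower. The authors' deposited table put Higd1a and Bnip3 past its own adjusted p of 0.05, both lower, of 8 members with an adjusted p there; 5.68% of its 9263 genes passed, 3.9% as lower. Over the 9 members the median log2 change was -0.03, with 6 negative and 3 positive. Over all genes tested the median was 0.06, and 45.0% had a negative change. Of all genes, 6 passed in limma as higher and 31 as lower, a split that was 17 and 16 after quantile normalization. In bulk RNA, fewer cells that express a gene and less RNA per cell cannot be told apart.

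**Figure D1:**
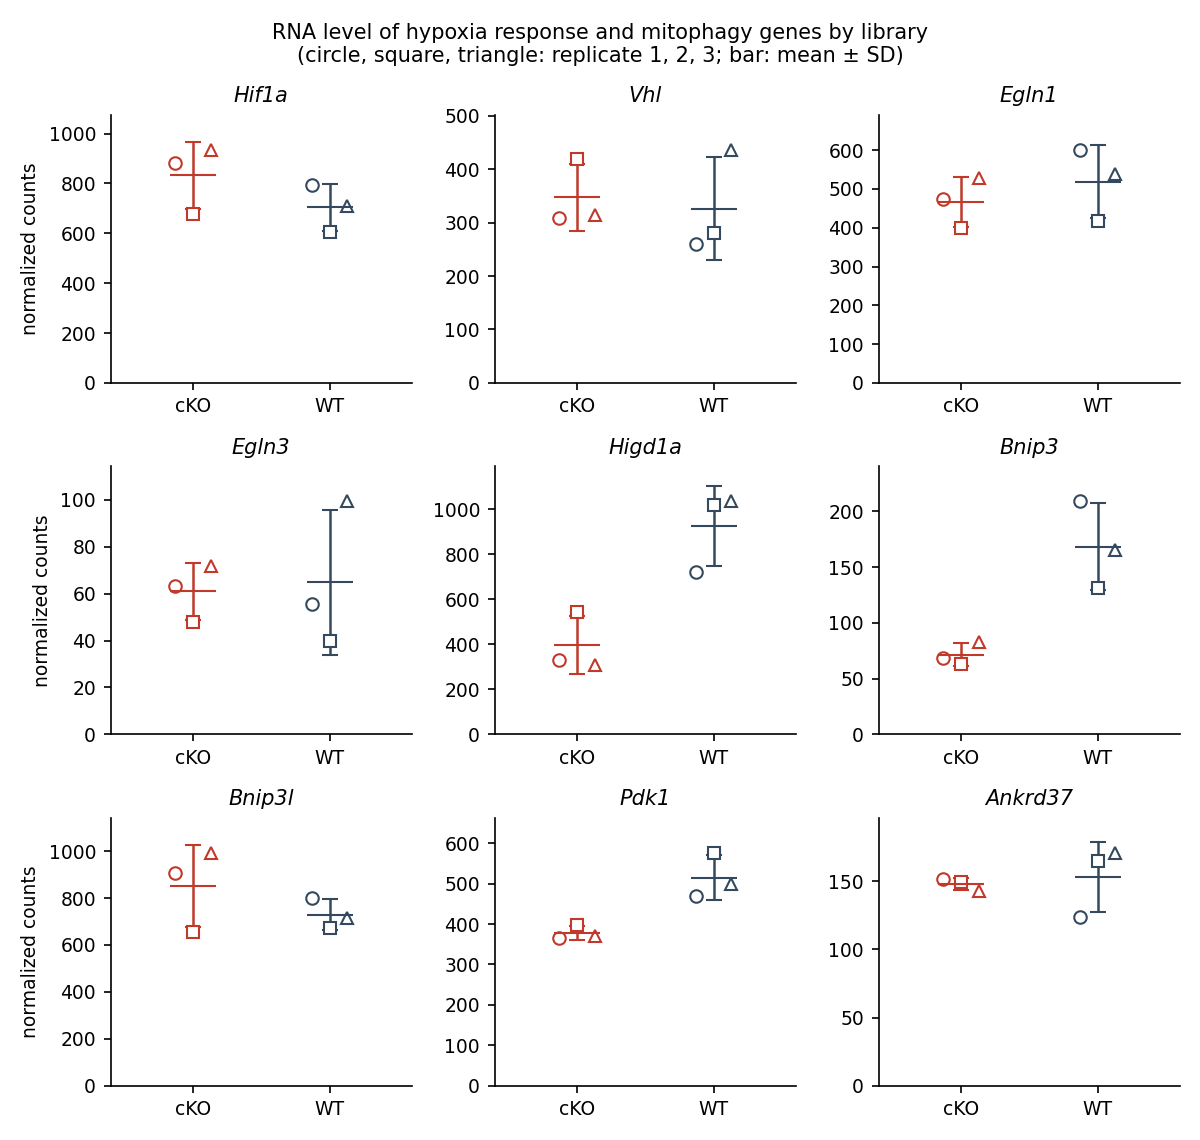
Normalized counts of each of the 9 genes in the 3 cKO-labelled libraries (red, left) and the 3 WT libraries (dark, right); symbols are replicates and bars the mean ± SD. Higd1a, Bnip3 and Pdk1 separate fully, with cKO-labelled values below WT values, while the other 6 genes overlap.

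Among the genes of the switch itself, the RNA of Hif1a, the oxygen-regulated subunit, was at 884.0, 678.9 and 935.3 normalized counts in the cKO-labelled libraries and at 795.6, 606.0 and 709.4 in WT libraries. The groups overlapped: cKO replicate 2 lay below both WT replicate 1 and WT replicate 3. The log2 change was 0.24 (SE 0.186, limma adjusted p = 0.65), a mean 1.18 times that of WT libraries. Vhl, which encodes the part of the ubiquitin ligase that recognises hydroxylated HIF, was at 309.0, 419.4 and 313.6 in the cKO-labelled libraries and at 260.9, 280.9 and 436.7 in WT libraries. The highest and the lowest of these 6 values were both from WT libraries, and the log2 change was 0.11 (SE 0.242, limma adjusted p = 0.89).

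Egln1, the main oxygen sensor among the prolyl hydroxylases, was at 473.9, 398.9 and 527.4 in the cKO-labelled libraries and at 601.1, 416.2 and 538.6 in WT libraries. Its log2 change of -0.14 (SE 0.203, limma adjusted p = 0.824) was smaller in size than its standard error, and the groups overlapped. Egln3, a hydroxylase that is itself switched on by HIF, had the lowest counts of the set, 63.4, 47.9 and 71.7 in the cKO-labelled libraries and 55.7, 39.7 and 99.5 in WT libraries. WT libraries alone spanned more than the cKO-labelled libraries did, and the log2 change was -0.01 with an SE of 0.402 (limma adjusted p = 0.997). The authors' deposited table gives Egln3 no adjusted p, and 0.552 for Hif1a, 0.768 for Egln1 and 0.891 for Vhl. The signs of the Vhl and Egln3 changes, and that of Ankrd37, turned when single libraries were left out.

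Of the 2 mitophagy receptors, only Bnip3 separated between the groups. Bnip3 (chr7:138890836-138909506, minus strand), an outer membrane protein that binds the autophagy protein LC3 and is a classic HIF target, was at 68.5, 62.7 and 83.0 normalized counts in the cKO-labelled libraries and at 209.2, 131.1 and 165.2 in WT libraries. Even the highest cKO-labelled value lay well under the lowest WT value. The means were 71.39 ± 10.5 in the cKO-labelled and 168.5 ± 39.2 in WT libraries (SD, n = 3 each), 2.36-fold lower in the cKO-labelled libraries. The log2 change was -1.21 (SE 0.293), with an adjusted p of 0.112 in limma, which does not pass, and 0.007 in the authors' deposited table, where the log2 change was -1.05. Of all genes tested, 1.86% had a lower log2 change. With each library left out in turn the limma log2 change of Bnip3 stayed between -1.38 and -1.04 and its adjusted p between 0.114 and 0.469.

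Bnip3l, also called Nix, the related receptor known for clearing mitochondria from maturing red cells, was at 905.1, 656.9 and 994.0 in the cKO-labelled libraries and at 800.5, 673.2 and 714.1 in WT libraries. Here cKO replicate 2 was the lowest of all 6 libraries and cKO replicates 1 and 3 were the highest. The log2 change was 0.21 (SE 0.19, limma adjusted p = 0.706). Within each library the Bnip3 count was 7.57%, 9.54% and 8.35% of the Bnip3l count in the cKO-labelled libraries and 26.1%, 19.5% and 23.1% in WT libraries. These percentages do not overlap between the groups, but they rest on the Bnip3 counts that already separated, so they are no further support. They set counts of 2 genes of unlike length side by side, so they compare libraries and not the levels of the genes.

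Of the mitochondrial proteins that HIF is known to induce, Higd1a (chr9:121848557-121857796, minus strand), a small inner membrane protein that associates with cytochrome c oxidase, was at 331.7, 543.3 and 309.5 normalized counts in the cKO-labelled libraries and at 718.7, 1019.0 and 1035.1 in WT libraries. cKO replicate 2 was the nearest of its group to WT and WT replicate 1 the nearest of its group to the cKO-labelled libraries, with a gap left between them. The means were 394.8 ± 129 in the cKO-labelled and 924.3 ± 178 in WT libraries (SD, n = 3 each), 2.34-fold lower in the cKO-labelled libraries. The log2 change was -1.25 (SE 0.238). The limma adjusted p was 0.0597, just short of the threshold, while the authors' deposited table gave 0.000213 with a log2 change of -1.12. The limma adjusted p was 0.0299 once WT replicate 1 was left out and 0.0192 once cKO replicate 2 was, and lay between 0.154 and 0.306 without any 1 of the other 4 libraries.

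Further measures of the libraries stood beside this difference, and their part in it was not tested. Mitochondrially encoded transcripts took 3.95%, 2.91% and 4.47% of the total in the cKO-labelled libraries and 2.48%, 3.35% and 2.15% in WT libraries, values that overlap. The median log2 change was also higher among longer genes: it was -0.02 among genes of 5.05 to 14.1 kb, which include Higd1a (9.2 kb) and Vhl (7.6 kb), and 0.04 among genes of 14.1 to 28.4 kb, which include Bnip3 (18.7 kb), Bnip3l (23.6 kb) and Egln3 (24.9 kb). cKO replicate 2 was the cKO-labelled library nearest the WT mean at 38.1% of all genes tested, against 31.9% and 30.0% for cKO replicates 1 and 3. WT replicate 1 was the WT library nearest the cKO-labelled mean at 36.2%, against 31.9% for each of WT replicates 2 and 3.

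Pdk1 (chr2:71873215-71903858, plus strand), the kinase that shuts pyruvate dehydrogenase and so holds pyruvate back from the mitochondria, was at 366.4, 398.7 and 369.3 in the cKO-labelled libraries and at 468.3, 577.0 and 500.3 in WT libraries. The cKO-labelled values lay close together and all below WT. The means were 378.1 ± 17.8 in the cKO-labelled and 515.2 ± 55.8 in WT libraries (SD, n = 3 each), 1.36-fold lower in the cKO-labelled libraries. The log2 change of -0.44 (SE 0.184) passed neither in limma (adjusted p = 0.357) nor in the authors' deposited table (adjusted p = 0.175), and 15.1% of all genes tested had a lower one. Ankrd37, an ankyrin repeat gene known as a HIF target in human cells, was at 151.9, 149.3 and 143.1 in the cKO-labelled libraries and at 124.0, 164.6 and 171.0 in WT libraries. All cKO-labelled values fell inside the WT range, and the log2 change was -0.03 (SE 0.251, limma adjusted p = 0.971). The genes with hypoxia response element cores in the promoters printed here ran from log2 changes of -1.25 for Higd1a to -0.01 for Egln3, with the 4 matches of Ankrd37 beside a change near 0. Of the genes with cores whose promoters are not printed, Hif1a, with 3 matches, was at 0.24 and Egln1, with 2, at -0.14.

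Open chromatin was called at a start of every member with an entry in the promoter table. No region lay over the further annotated start of Pdk1. Of the 24 regions over the 9 genes, 11 (against 29.3% of all regions) had a peak in all 6 lists, 10 (against 39.3%) had a peak in a single list, and none was in all 3 lists of one genotype and no list of the other. Such regions made up 0.28% of all regions for the cKO-labelled and 2.48% for the WT libraries. The 8 regions over an annotated start, and the 1 at the higher-coordinate end of Bnip3l, each had a peak in all 6 lists. Peaks lay in 11, 12 and 14 of the 24 regions in the cKO-labelled libraries and in 19, 14 and 16 in WT libraries. Regions seen in lists of one genotype alone numbered 2 for the cKO-labelled libraries (21.7% of all regions) and 9 for WT (27.4% of all regions); peaks in all numbered 54133, 64289 and 56148 in the cKO-labelled libraries and 75017, 60069 and 64585 in WT libraries, of which WT replicate 2 lay below cKO replicate 2.

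**Figure D2:**
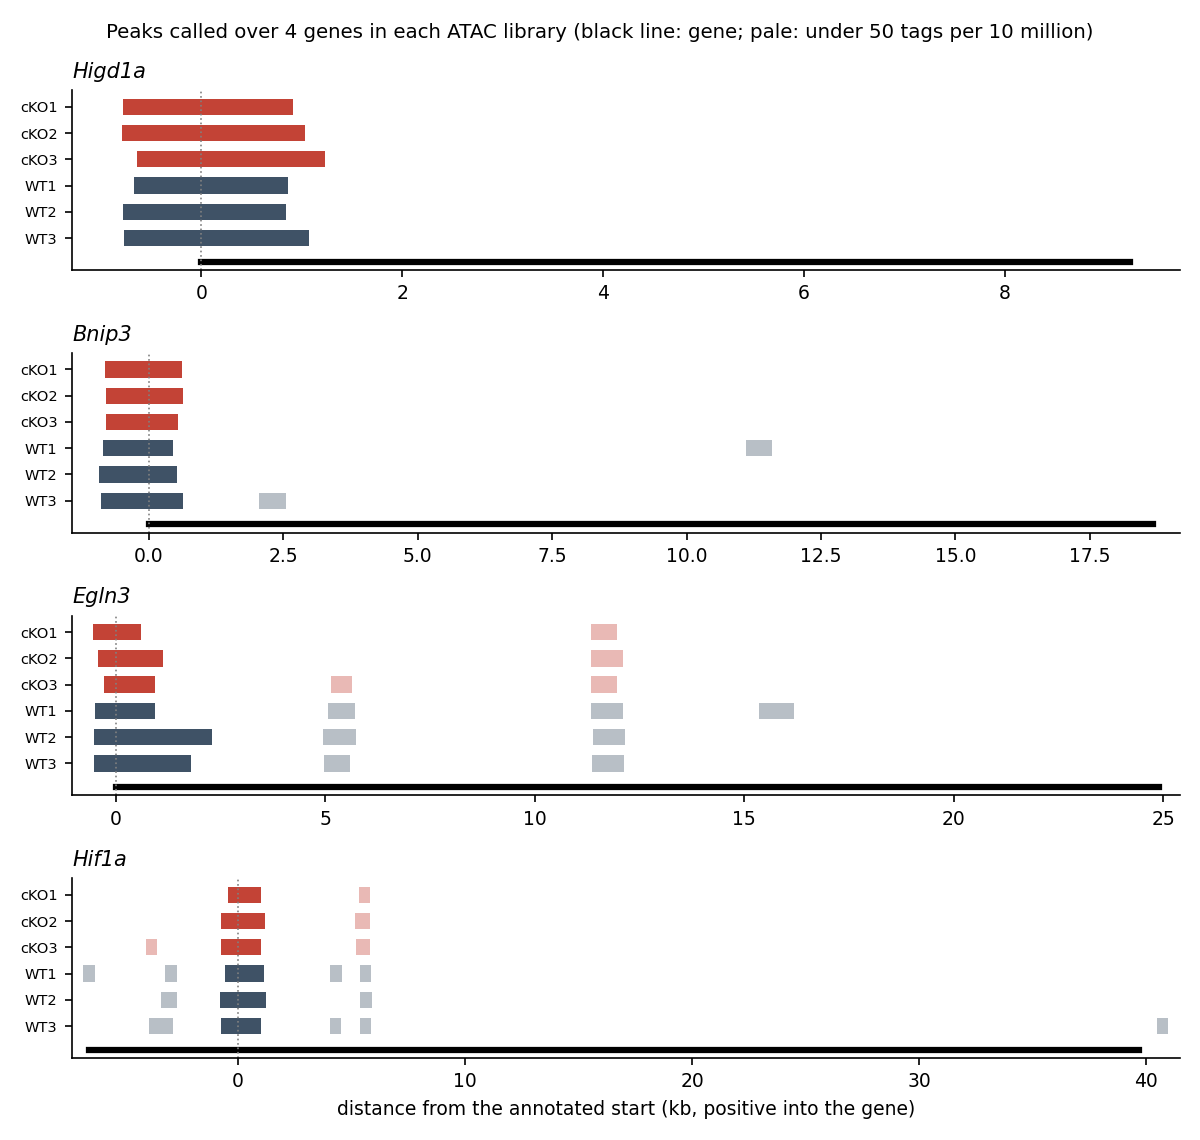
Peaks called over Higd1a, Bnip3, Egln3 and Hif1a in each ATAC library, by distance in kb from the annotated start; cKO-labelled libraries (red) are above WT libraries (dark), pale bars are peaks under 50 tags per 10000000 and the black line is the gene. All 6 libraries have a peak over each start, and the inner peaks are low and vary between libraries.

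The tag count of a peak is given per 10000000 tags of its library. At the start of Bnip3 (chr7:138908864-138910434) it was 164.5, 160.8 and 168.8 in the cKO-labelled libraries and 127.2, 90.3 and 134.8 in WT libraries. The cKO-labelled values lay above WT, the opposite side from the RNA. At the start of Higd1a (chr9:121856565-121858584) it was 306.3, 297.8 and 308.0 in the cKO-labelled libraries and 265.0, 159.9 and 269.6 in WT libraries, again with no overlap. Without WT replicate 2, the mean at Bnip3 was 165 in cKO-labelled and 131 in WT libraries, and the mean at Higd1a was 304 in cKO-labelled and 267 in WT libraries.

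The other start regions were also open in every library. Ankrd37 (chr8:45999201-46000734) had 358.7, 366.4 and 334.6 tags in the cKO-labelled libraries and 266.5, 139.7 and 280.5 in WT libraries. Hif1a (chr12:73907090-73909116) had 274.2, 307.7 and 292.0 tags in the cKO-labelled libraries and 253.3, 137.8 and 233.9 in WT libraries. Pdk1 (chr2:71872610-71874730) had 198.7, 219.4 and 201.9 in the cKO-labelled libraries and 189.9, 110.8 and 162.2 in WT libraries. The region at the end of Bnip3l (chr14:67007678-67010482) had 335.9, 318.4 and 342.6 in the cKO-labelled libraries and 302.7, 177.1 and 263.2 in WT libraries. In these 4 too every cKO-labelled value was above every WT value. This held for 6 of the 11 member regions with a peak in all 6 lists, against 13.6% of all 33531 such regions. All 6 belong to the 6707 tallest, of which 49.9% separated in this way, and no other member region does. None of these 11 regions separated as lower, against 21.8% of all regions with a peak in all 6 lists. Without WT replicate 2, which is low at all 6, the count was 7 of 11, against 13.8% of all. The region added was the Hif1a region 5.17 kb from the annotated start. It is not among the tallest, of which 50.1% separated as higher without that library. Of the 11, 3 then separated as lower, the start and the tested inner region of Egln3 and the start of Vhl, against 43.8% of all.

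At Vhl (chr6:113623388-113625820) the tag counts were 87.3, 89.4 and 84.4 in the cKO-labelled libraries and 95.1, 63.8 and 107.0 in WT libraries, and at Egln3 (chr12:54201564-54204414) 70.0, 64.3 and 56.7 in the cKO-labelled and 70.6, 62.7 and 72.5 in WT libraries. Both overlapped. At Egln1 (chr8:124947584-124950348) the largest peak held 89.3, 116.2 and 128.1 tags in the cKO-labelled libraries and 102.7, 19.9 and 90.5 in WT libraries. The low value is from WT replicate 2, where more than 1 peak was called over this start and their tags summed to 36.5.

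Because tall regions as a class were higher in the cKO-labelled libraries, the test was run after quantile normalization, which gives every library the same spread of tag counts. Limma then put 0 of the 11 member regions past an adjusted p of 0.05, which 8.0% of the 33531 regions passed, and 3 of 11 had an unadjusted p under 0.05, against 27.9% of all regions. Those 3 were the starts of Bnip3 (log2 change 0.28, SE 0.0911, limma adjusted p = 0.0772), Ankrd37 (0.27, SE 0.103, limma adjusted p = 0.116) and Egln1 (0.91, SE 0.414, limma adjusted p = 0.175). The Egln1 change was 0.26 without WT replicate 2. The start of Higd1a had a log2 change of 0.02 (SE 0.0718, limma adjusted p = 0.903), that of Pdk1 0.15 (SE 0.0841, adjusted p = 0.261), and that of Hif1a 0.13 (SE 0.083, adjusted p = 0.315). For the 3 genes whose RNA separated as lower, the open chromatin change at the start was thus 0.02 to 0.28 on the log2 scale. It was not negative for any of them under this scaling, although the Higd1a value of 0.02 turned to -0.32 per kb of peak, to -0.0019 with cyclic loess and to -0.03 without WT replicate 2.

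The ATAC calls depended on the scaling. With library medians subtracted in place of quantile normalization, 7 of the 11 member regions passed, all as higher, namely the starts of Hif1a, Egln1, Higd1a, Bnip3, Pdk1 and Ankrd37 and the end of Bnip3l; 33.5% of all regions passed, 28.0% as higher. Over all regions, 1229 were called higher and 1452 lower after quantile normalization, against 9387 higher and 1836 lower with medians subtracted. With no further scaling the start of Egln1 passed (background 10.4%), with all peaks of a region summed that of Bnip3 passed (limma adjusted p = 0.0471, background 14.1%), and without WT replicate 3 that of Ankrd37 passed (limma adjusted p = 0.0452, background 6.16%).

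**Figure D3:**
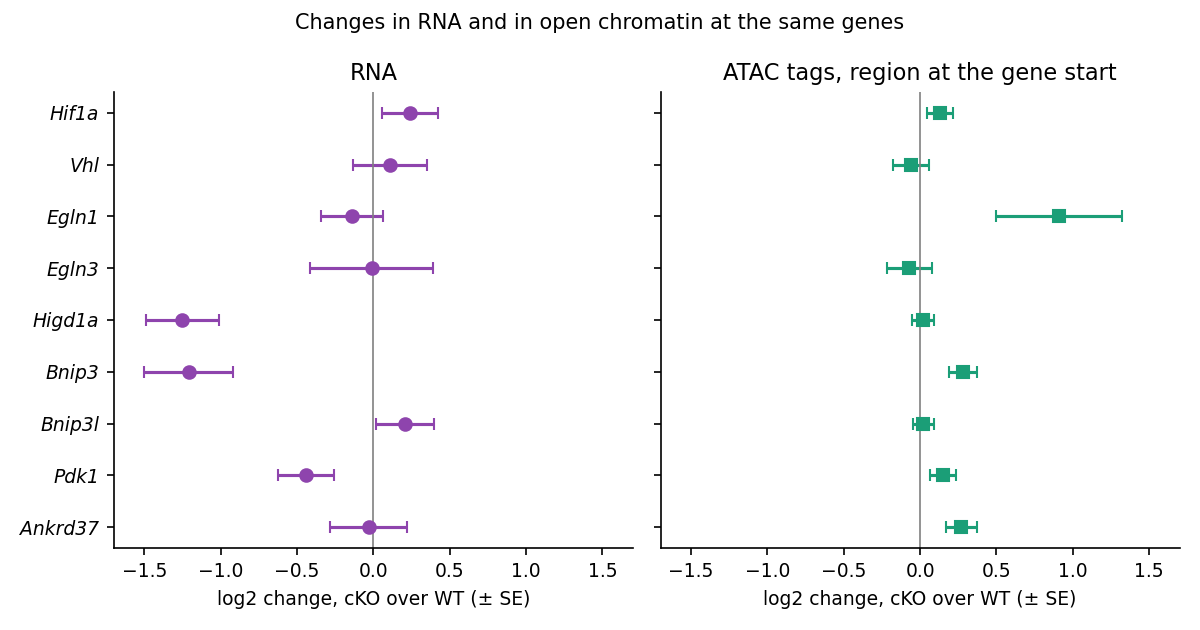
Log2 change, cKO-labelled over WT, with its standard error, of the RNA (left) and of the quantile-normalized ATAC tag count of the region at the gene start (right; for Bnip3l the region at its higher-coordinate end). Higd1a and Bnip3 stand at -1.25 and -1.21 for RNA and at 0.02 and 0.28 for ATAC.

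Away from the starts, peaks over the members were low. Hif1a had 5 other regions within 1 kb of the gene or inside it, of which 1, 5.17 kb from the annotated start, was in all 6 lists, with 11.7, 10.4 and 9.51 tags in the cKO-labelled libraries and 6.79, 12.5 and 8.64 in WT libraries. Its log2 change was 0.44 (limma adjusted p = 0.321). Egln3 had an inner region 11.3 kb from its start in all 6 lists, with 20.4, 15.2 and 16.0 tags in the cKO-labelled libraries and 22.3, 13.6 and 22.9 in WT libraries. The deposited tags averaged 17.2 in the cKO-labelled and 19.6 in WT libraries, and the groups overlapped. The log2 change was 0.26 after quantile normalization (limma adjusted p = 0.497) and -0.15 without further scaling, so its sign came with the scaling. A second inner region of Egln3, 4.96 kb from the start, had a peak in 1 cKO-labelled list, at 6.84 tags, and in 3 WT lists, at 16.2, 13.6 and 19.1 tags. A Hif1a region 2.7 kb from the annotated start was likewise in 1 cKO-labelled list and 3 WT lists. There the cKO-labelled value of 7.98 tags lay within the WT values of 6.79, 9.0 and 19.1. Neither region has a test because a library without a called peak has no tag count. The other inner regions of Egln1, Egln3, Bnip3 and Pdk1 were each in a single list.

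The genes around the 9 were described from lists of the same pathways. In the list of HIF sensors, ligase subunits and partners 17 genes were tested. The log2 change was below 0 for 11 of them, against 45.0% of all genes, and the list median was -0.07. None passed in limma; at an unadjusted p under 0.05, 2 were lower and 2 higher, against 6.05% of all genes in each direction, and the authors' deposited table called 1 of 12 lower, against 3.9% of its genes. That 1 was Eloc, elongin C, which links Vhl to the ligase: 711.4, 896.4 and 610.6 normalized counts in the cKO-labelled libraries and 1214.7, 1127.5 and 1243.0 in WT libraries (log2 change -0.71, limma adjusted p = 0.119, and 0.0121 in the authors' deposited table). Its partner Elob, elongin B, was at -0.41 (limma adjusted p = 0.295) and separated in the same direction. Epas1, which encodes the related HIF-2 alpha subunit, was at 174.3, 61.1 and 29.7 in the cKO-labelled libraries and at 24.7, 28.7 and 32.4 in WT libraries, so that its log2 change of 1.24 (limma adjusted p = 0.397) leaned on cKO replicate 1. Ep300, a coactivator of HIF, was at 0.59 (limma adjusted p = 0.262) and separated as higher. In this list 2 genes separated as lower and 1 as higher, against 9.76% and 7.4% of all genes.

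Of 40 tested genes known as HIF targets in other tissues, 19 had negative changes, against 45.0% of all genes, and the median was 0.07. In this list 9 separated as lower and 5 as higher, against 9.76% and 7.4% of all genes. None passed in limma; at an unadjusted p under 0.05, 10 were lower and 7 higher, against 6.05% of all genes in each direction. The authors' deposited table called 6 of 34 lower and 1 higher, against 3.9% and 1.78% of its genes. The 6 were Ldha (lactate dehydrogenase, log2 change -0.48 in limma), Pgk1 (-0.50) and Tpi1 (-0.53), which are enzymes of glycolysis, the mitochondrial proteins Fam162a (-0.65) and Ak4 (-0.98), and the transferrin receptor Tfrc (-0.60). Their limma adjusted p ran from 0.112 for Ldha to 0.177 for Ak4. All 6 separated fully, but they were picked by a test on the same libraries, so the separation is no further support. The 1 that was higher was Bhlhe40, a transcriptional repressor that activated T cells also express, at 4253.8, 2780.5 and 4736.5 normalized counts in the cKO-labelled libraries and at 2562.8, 1877.8 and 2013.9 in WT libraries (log2 change 0.84, limma adjusted p = 0.104, and 0.00379 in the authors' deposited table). Known HIF targets thus lay on both sides of 0.

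**Figure D4:**
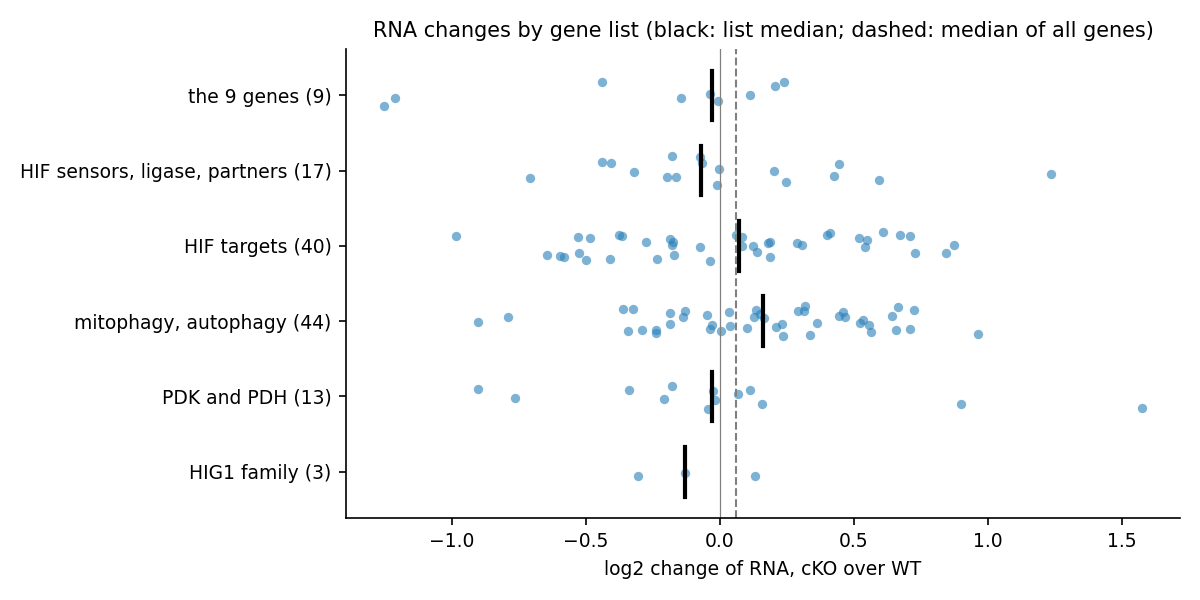
Log2 change of RNA, cKO-labelled over WT, for each tested gene of the 9 and of the wider lists, with the number tested in brackets, the list median as a black bar and the median of all genes as a dashed line. The list medians lie between -0.13 and 0.16, and Higd1a and Bnip3 are the lowest points plotted, at -1.25 and -1.21.

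In the list of mitophagy and autophagy machinery 44 genes were tested, with a median of 0.16 and 15 negative changes, against 45.0% of all genes. Here 9 genes separated as higher and 3 as lower, against 7.4% of all genes as higher and 9.76% as lower. None passed in limma; at an unadjusted p under 0.05, 5 were higher and 1 lower, against 6.05% of all genes in each direction. The authors' deposited table called 3 of 38 higher and 1 lower, against 1.78% and 3.9% of its genes. The 3 were Sqstm1, the autophagy adaptor p62 and itself a known NRF2 target, Atg13, a subunit of the kinase complex that starts autophagy, and Pink1, the kinase that marks damaged mitochondria. Their log2 changes were 0.64 for Sqstm1, 0.66 for Atg13 and 0.71 for Pink1, with limma adjusted p of 0.115, 0.16 and 0.183. The adjusted p in the authors' deposited table was 0.0108 for Sqstm1, 0.0223 for Atg13 and 0.0386 for Pink1. Pink1 was at 351.7, 342.1 and 410.1 normalized counts in the cKO-labelled libraries and at 243.4, 192.5 and 239.2 in WT libraries. The lower gene was Tomm7, a small subunit of the outer membrane import pore, at 796.0, 1107.8 and 786.0 in the cKO-labelled libraries and at 1385.5, 1875.5 and 1751.9 in WT libraries (log2 change -0.90, limma adjusted p = 0.0681, and 0.00104 in the authors' deposited table).

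Around Pdk1, 13 genes of the pyruvate dehydrogenase kinases, phosphatases, subunits and the pyruvate carrier were tested, with a median of -0.03 and none past the limma threshold; at an unadjusted p under 0.05, 2 were higher and 1 lower, against 6.05% of all genes in each direction. The 1 of 10 called in the authors' deposited table, against 3.9% of its genes as lower, was Mpc2, a subunit of the mitochondrial pyruvate carrier, which was lower (log2 change -0.77, limma adjusted p = 0.146, and 0.0223 in that table). The kinase gene Pdk2 was at 45.6, 22.1 and 53.2 in the cKO-labelled libraries and at 23.7, 9.1 and 7.8 in WT libraries, which overlap (log2 change 1.57, limma adjusted p = 0.312). Pdpr, a regulator of the phosphatase, was at 0.90 (limma adjusted p = 0.408) and Pdk4 at -0.90 (limma adjusted p = 0.432), both with overlapping groups. Around Higd1a, 3 genes were tested and none passed in either table; at an unadjusted p under 0.05, 1 was lower, against 6.05% of all genes, namely Cox4i1, a subunit of cytochrome c oxidase (log2 change -0.31, limma adjusted p = 0.405). Higd2a, the paralog of Higd1a, was at 0.13 (limma adjusted p = 0.855), and Cox7a2l, a factor for respiratory supercomplexes, at -0.13 (limma adjusted p = 0.778).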

How the data were processed

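RNA-seq and ATAC-seq were deposited for 3 cKO-labelled and 3 WT libraries each. The submitters' processing notes name HOMER 4.11, Bowtie2 2.3.5.1, RSEM 1.3.3, STAR, edgeR and DESeq2, with build mm10 and no settings. Normalized counts per gene are the deposited RNA signal; most are not whole numbers, so no count model was fitted, and raw sequencing depth is not known. The authors' log2 fold change, its standard error (a score here), p-value and adjusted p-value are printed as theirs. Per the file headers, each ATAC library has its own HOMER peak list in variable-length mode at a Poisson p-value of 0.001 and at most 1 tag per bp; the tag count is a signal per 10000000 tags, the score of a peak counts tags before that scaling, and the clonal fold change, also deposited, is a ratio that was not used.

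For genes with a mean of at least 10, log2 of the value plus 1 went into limma 3.58.1 (R 4.3.3) with a trend of variance on mean. Peaks sharing 1 bp were merged with Python 3.11.15 and pandas 2.3.3, and a region's tag count was that of its largest peak. Regions with a peak in all 6 lists were tested with limma on quantile-normalized log2 of the tag count plus 1; an earlier analysis subtracted library medians, which leaves a change that grows with tag count. Genes were placed on the RefSeq GRCm38.p6 table, widened by 1 kb. The members, lists and this scaling were chosen with earlier results of these data known. All members are named, and of each list the 4 genes with the smallest p and those called. On simulated RNA data of 18074 genes, 0 of 200 genes changed by 1 on the log2 scale and 88 of 200 changed by 2 were recovered. For the 33531 ATAC regions the numbers were 49 and 173. At a change of 2, 6 genes and 4 regions were called falsely. Noise was drawn with the residual spread of each gene or region in these libraries, so recovery in the real data may differ. Alternatives were other pseudocounts, filters, scalings, weights, the replicate number as a block, left-out libraries and the authors' own p. Figures were drawn with matplotlib 3.10.9.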

Additional observations from a re-analysis of the deposited data

How the results depend on the processing

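The number of members past the adjusted p of 0.05, 0 in limma, was 1 with a pseudocount of 5 (0.293% of all genes passed), 1 with no filter on low values (0.198%), 1 with the replicate block (0.675%), 2 with sample quality weights (9.86%), 2 by the authors' adjusted p (5.68%), and 0 to 1 with single libraries left out (1 without WT replicate 1, where 0.465% passed, and without cKO replicate 2, where 0.83% did); the gene was Higd1a, joined by Bnip3 where it was 2. The sample quality weights were 7.43 for cKO replicate 1 and 0.44 to 1.12 for the other libraries, so that setting leaned on 1 library. Of 144 member results under RNA alternatives, 128 kept direction and side of the threshold and 9 newly passed. Signs turned for Vhl (-0.13 with sample quality weights, and -0.03 to 0.34 with single libraries left out), Ankrd37 (-0.18 to 0.05 with single libraries left out, above 0 without WT replicate 2 or 3) and Egln3 (-0.30 to 0.35, above 0 without WT replicate 3 or cKO replicate 2). The number of member regions past the threshold, 0 after quantile normalization, was 7 with library medians subtracted (33.5% of all regions, 28.0% as higher), 1 without further scaling (10.4%), 1 with summed tags (14.1%) and 0 to 1 with single libraries left out (Ankrd37 without WT replicate 3, adjusted p = 0.0452 in limma, where 6.16% passed). It was 0 per kb of peak, where 2.48% passed. With medians subtracted the Vhl and Egln3 starts were at 0.31 and 0.20. Without further scaling the Vhl start was at 0.01 and the inner Egln3 region at -0.15. Per kb of peak the starts of Vhl, Egln3, Higd1a and Ankrd37 were at 0.54, 0.60, -0.32 and -0.0015, and with cyclic loess Higd1a was at -0.0019. With single libraries left out the ATAC change ran from -0.12 to 0.03 at Vhl, -0.17 to 0.05 at Egln3, -0.03 to 0.07 at Higd1a and -0.0012 to 0.06 at Bnip3l. The cause was not tested. Deviations from the group mean correlated between same-numbered libraries at 0.116, 0.206 and -0.055 in RNA, and at -0.023, -0.008 and 0.004 in ATAC. Pairs of unlike number ran from -0.271 to 0.215 in RNA. Because these ranges overlap, the correlations cannot decide whether libraries sharing a number form pairs. Genes called in all, 37, were 122 with the replicate block, and 943 higher and 840 lower with sample quality weights. They were 1 without WT replicate 2 and 150 without cKO replicate 2. In RNA, WT replicate 1 correlated best with cKO replicate 3, and WT replicates 2 and 3 with cKO replicate 2.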

Other observations

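Copies and neighbours of the members can share their reads, and counting by strand is not given in the sources used here. Bnip3l-ps, a pseudogene of Bnip3l, was at 39.0, 20.0 and 43.7 normalized counts in the cKO-labelled libraries and at 29.1, 16.4 and 34.5 in WT libraries, and Vhl-ps1 averaged under 10 in both groups. The start of Higd1a overlaps the lncRNA Gm47112 over 50 bp on GRCm38.p6, and the pseudogene Gm18258 lies inside Bnip3 over 988 bp; neither is analysed here. The lncRNA Gm15283 overlaps 12831 bp of Hif1a and was at 1.5, 4.6 and 0.0 normalized counts in the cKO-labelled libraries and at 3.4, 0.0 and 17.7 in WT libraries, where WT replicate 3 alone was above 10. Ufsp2, which overlaps Ankrd37 by 51 bp, was at 227.1 ± 38.8 in the cKO-labelled and 267.7 ± 31.3 in WT libraries (SD, n = 3 each).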
